A study of Mus musculus with 6 samples.

Results

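Collagens are the main structural proteins of the extracellular matrix, and the collagen gene family is described here across kidneys of 2 ages. A gene was taken as a member where its symbol was Col, a type number, the letter a and a chain number, and where a probe of the array named one of its RefSeq transcripts. Of 44 such genes in the mouse RefSeq annotation, 42 had a probe, among 20284 genes named on the array in all, while Col6a3 and Col12a1 had none. The groups were kidneys of 20-month-old male C57BL/6 mice (aged) and kidneys of 2-month-old male C57BL/6 mice (young), an inbred laboratory strain, with no treatment named for either. Each age had 3 total RNA samples, and every sample was run on a single-colour Agilent array. The RNA preparations are labelled as independent, but not as coming from different mice. A p-value here therefore reflects the scatter among 3 preparations per age, some of which may be technical.

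A collagen is built of 3 chains wound into a triple helix, and each chain has its own gene. Fibrillar collagens such as types I, III and V form the fibres of the interstitium between tubules and around vessels, where fibroblasts and related cells make them. Type IV forms the sheet-like network of basement membranes. The network of Col4a1 and Col4a2 chains is found in basement membranes throughout the body, and that of Col4a3, Col4a4 and Col4a5 chains makes up most of the mature glomerular filter, where podocytes secrete it. Whole-kidney RNA reports transcript levels, not the amount of protein in the matrix, and in such RNA fewer cells of a type and less RNA per cell cannot be told apart.

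Signals are given as normalised log2 signal: the log2 of the scanner's processed signal minus that array's 75th percentile, so that 0 is the 75th percentile of the array's spots. A gene was tested where its probe was well above background, by the scanner software's own mark, on all arrays of at least 1 age. Between 46.3% and 62.8% of probes carried that mark on the aged arrays and between 55.3% and 72.9% on the young arrays. The 6 arrays shared 1 slide and 1 scan, with the aged samples in its row 2 and the young samples in its row 1. Age and the row on the slide cannot be told apart. Replicates 1, 2 and 3 of both ages lay in slide columns 1, 2 and 3, and the 75th percentile signal was lowest in column 3 at both ages (4498, 4205 and 2702 on the aged and 4366, 4061 and 2892 on the young arrays). In each of the lists of kidney cell markers, covering tubules, podocytes, endothelium, fibroblasts and others, 0 members with a probe lacked that mark on all 6 arrays. Some carried it on few arrays: Lep, Magi2 and Myocd had it on 1 array only and were too dim to test. Precision is limited by having 3 arrays per age.

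Collagen transcripts were lower in aged than in young kidney for 6 genes and higher for 0. The genes that fell were Col1a1, Col3a1 and Col5a2 of the interstitial fibres, Col4a2 and Col4a3 of basement membranes, and Col26a1. They are 6 of the 27 collagen genes that could be tested, where 1.4% of all 14548 genes tested fell by the same rule (203 genes; 288 rose, 1.98%), a limma test with a Benjamini-Hochberg adjusted p under 0.05 over all genes. None of the 6 fell at least 2-fold, a size that 0.474% of all genes reached with an adjusted p under the threshold. All 6 were well above background on every array. Of the 23 collagen genes with that property the same 6 fell when only such genes were tested, against a background of 1.55%.

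Changes below 0 were also common among collagen genes that did not pass. The log2 change was below 0 for 22 of 27 tested collagen genes and above 0 for 5, where 52.8% of all genes tested were below 0. Of the 23 collagen genes well above background on all 6 arrays, 20 had a change below 0. The median change was -0.45 over the collagen genes and -0.01 over all genes tested. All aged arrays lay below all young arrays for 16 of the 27, where 11.5% of all genes did so, and all aged arrays lay above all young arrays for 1, Col8a2, where 10.4% of all genes did so. At an unadjusted limma p under 0.05, 16 collagen genes were lower (9.18% of all genes tested) and 1 was higher (7.97% of all). Col15a1 and Col20a1 stand in both counts of 16 and were well above background on all young arrays but only 2 and 1 aged arrays. The count of collagen genes called depended on single arrays: it was 7, 1 and 2 without aged replicates 1, 2 and 3, and 1, 4 and 2 without young replicates 1, 2 and 3, and 0 of these genes rose in any of these fits. The share of all genes tested that fell moved as well. It was 3.97%, 0.247% and 0.516% without aged replicates 1, 2 and 3. Without young replicates 1, 2 and 3 it was 0.323%, 0.619% and 0.426%. With the slide column, which is also the replicate number, as a block, 2 collagen genes passed, Col5a2 (limma adjusted p = 0.0478) and Col1a1 (0.0481), where 266 of all genes did. Every aged array lay below every young array for all 6 genes called. The aged array was therefore also the lower one within each of the 3 columns, which adds no separate evidence.

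**Figure D1:**
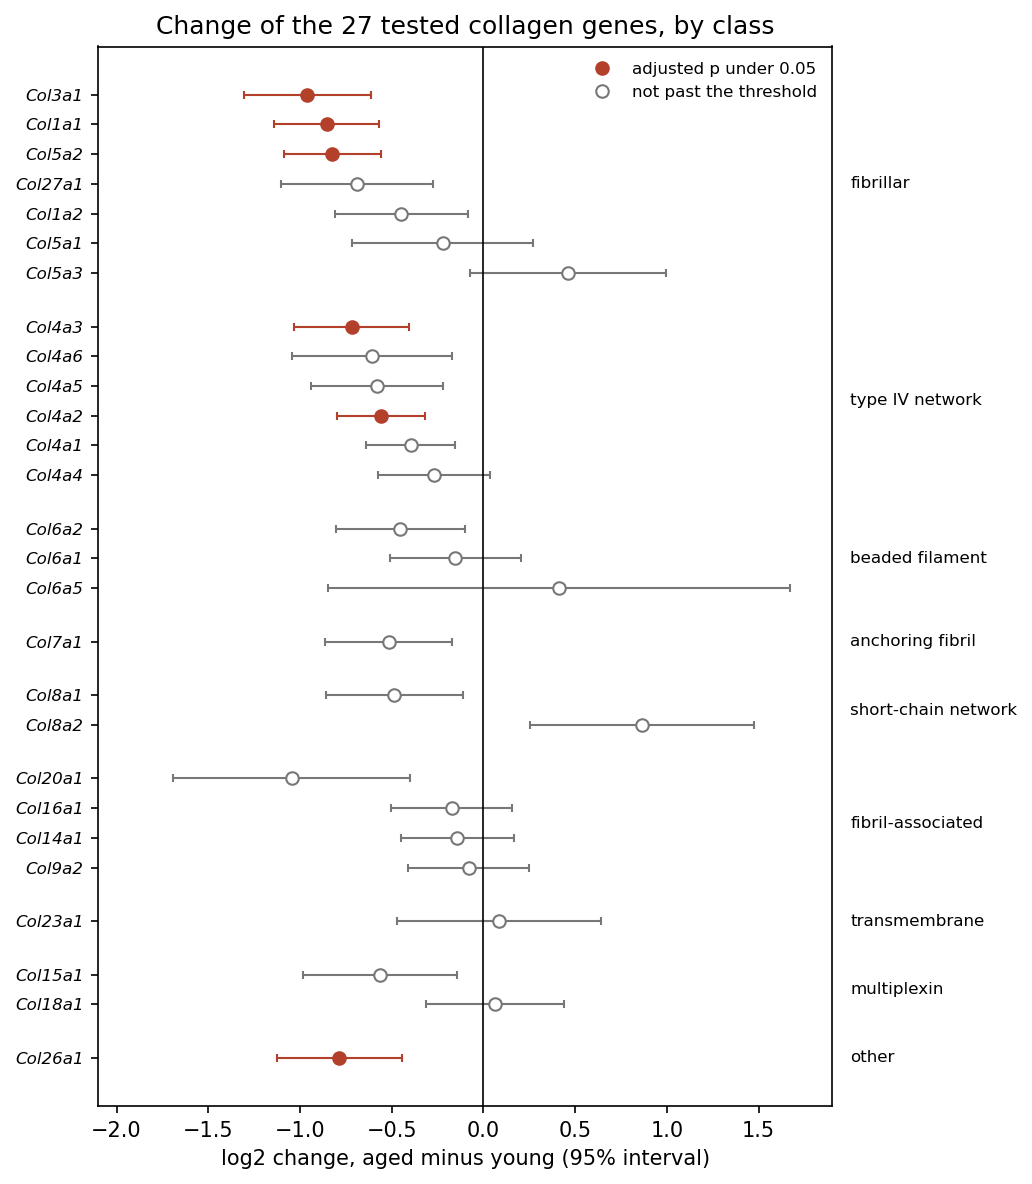
Log2 change, aged minus young, of the 27 tested collagen genes, grouped by collagen class; points are limma estimates from 3 arrays per age and bars are 95% intervals. Filled points mark the 6 genes with an adjusted p under 0.05, all of them below 0, and 5 open points lie above 0.

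Of the fibrillar collagens, 7 of 11 genes were tested, and 3 of them fell. Col3a1 encodes the only chain of type III collagen, which is abundant in soft and elastic tissues. Its normalised log2 signal was 2.33, 2.09 and 2.09 on aged replicates 1, 2 and 3 and 2.94, 3.04 and 3.41 on young replicates 1, 2 and 3. The lowest young array was above the highest aged array. The change was -0.96 ± 0.15 (SE, n = 3 arrays per age), 1.95-fold lower, with a limma adjusted p of 0.0182. It was the largest fall among the 6 collagen genes called.

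Col1a1 and Col1a2 encode the partner chains of type I collagen, the main fibre protein of connective tissue. Col1a1 had 1.79, 1.75 and 1.46 on the aged arrays and 2.56, 2.44 and 2.57 on the young arrays. These groups were apart by more than the spread within either, and the change was -0.85 ± 0.12 (SE, n = 3 per age, limma adjusted p = 0.0138). Col1a2 had 3.50, 3.29 and 3.54 on the aged arrays and 3.66, 3.82 and 4.18 on the young arrays. Its groups did not overlap either, but the gap between them was small, and the change of -0.45 ± 0.16 did not pass (limma adjusted p = 0.197, 95% interval -0.81 to -0.09). Within an array the log2 difference Col1a1 minus Col1a2 was -1.71, -1.54 and -2.09 in aged and -1.10, -1.39 and -1.62 in young kidney. These ranges overlapped, so an unequal fall of the partner chains was not shown.

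The promoters of Col3a1 and Col1a2, the fibrillar members just described for which the RefSeq table of build GRCm38.p6 gave one, are shown so that the start region of the gene with the largest called fall can be read beside that of a type I chain that did not pass. Each line gives the 150 bases before the annotated start, on the plus strand, 5′ to 3′. Capitals mark letter matches, on either strand, to 3 common promoter motifs: TATAAA, a box near many starts, then CCAAT, and then GGGCGG, known as the GC box. The Col3a1 stretch lies at chr1:45311388-45311537 and the Col1a2 stretch at chr6:4505468-4505617.
Col3a1: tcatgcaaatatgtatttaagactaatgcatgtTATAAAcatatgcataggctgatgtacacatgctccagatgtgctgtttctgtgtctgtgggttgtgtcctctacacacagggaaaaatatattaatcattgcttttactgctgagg
Col1a2: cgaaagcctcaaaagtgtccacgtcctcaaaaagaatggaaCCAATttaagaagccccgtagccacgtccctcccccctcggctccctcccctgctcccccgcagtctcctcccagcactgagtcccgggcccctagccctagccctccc
The TATAAA match of Col3a1 began 117 bases before its start, and the CCAAT match of Col1a2 began 109 bases before its start. Over the 250 bases before the start, CCAAT was found in 13 of 37 promoters of 34 collagen genes (35.1%) and in 33.8% of all 32851 promoters of the table, and TATAAA in 5 of 37 (13.5%) against 12.4%. GGGCGG was found in 22 of 37 (59.5%) against 32.7% of all. A match is a run of letters and no evidence that a factor binds there.

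Type V collagen is a minor partner that sits inside type I fibres and sets their width. Of its 3 chains 1 fell. Col5a2 had -2.83, -2.61 and -2.77 on the aged arrays and -1.94, -2.01 and -1.79 on the young arrays. All aged arrays were lower, by -0.82 ± 0.12 (SE, n = 3 per age, limma adjusted p = 0.0125), 1.77-fold. Col5a1 changed by -0.22 ± 0.21 (limma adjusted p = 0.65), with overlapping groups. Col5a3, a chain of a less common form of type V collagen, had -1.004, -0.80 and -1.04 on the aged arrays and -1.74, -1.65 and -0.85 on the young arrays. Its aged values lay within or above the young range, and the change of 0.46 ± 0.23 did not pass (limma adjusted p = 0.357). The log2 difference Col5a2 minus Col5a3 within an array was -1.82, -1.82 and -1.73 in aged and -0.20, -0.36 and -0.94 in young kidney, lower on every aged array (two-sided exact permutation p = 0.1, the smallest that 3 arrays per age allow; 0.383 after Benjamini-Hochberg adjustment over the 23 pairs of tested chains of a type).

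Col27a1, a fibrillar collagen best known from cartilage, was the remaining tested fibrillar gene. It had -1.69, -1.74 and -2.31 on the aged arrays and -1.09, -1.33 and -1.26 on the young arrays, without overlap, and its change of -0.69 ± 0.18 did not pass (limma adjusted p = 0.093). The fibrillar genes Col2a1, Col11a1, Col11a2 and Col24a1 were too dim to test. Col2a1 and Col11a1 encode collagen chains of cartilage. Without young replicate 1, the adjusted p was 0.0625 for Col1a1 and 0.0548 for Col5a2; that of Col1a1 was also 0.0521 without aged replicate 2 and 0.0515 without young replicate 3, and that of Col3a1 was 0.0825 and 0.0641 without aged replicates 2 and 3. With the slide column as a block that of Col3a1 was 0.0559.

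**Figure D2:**
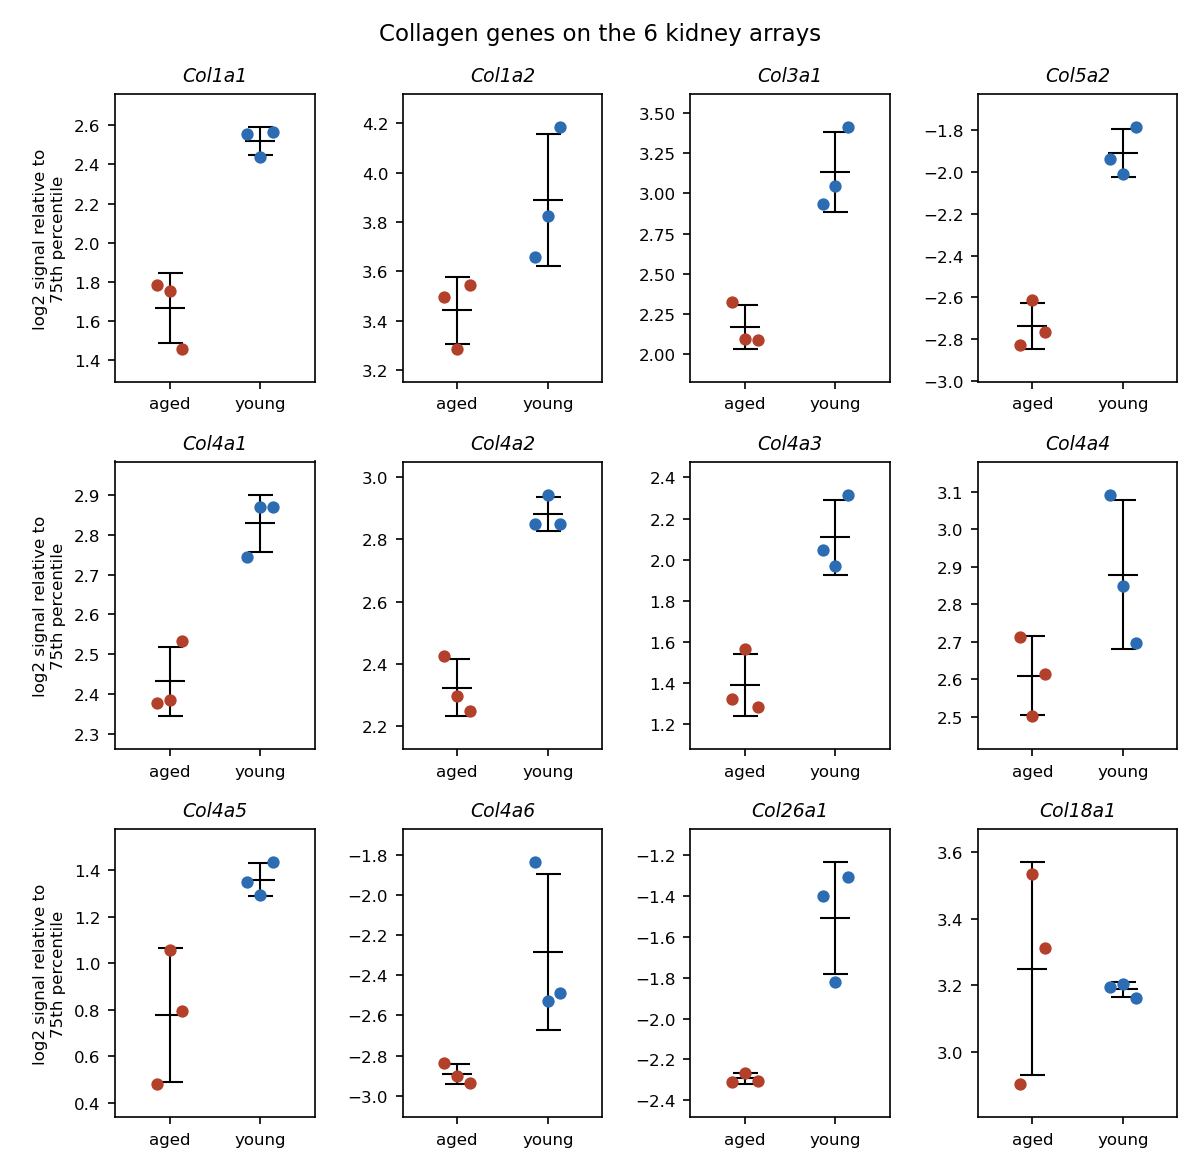
Normalised log2 signal (log2 signal relative to the array's 75th percentile) of 12 collagen genes; points are single arrays, aged on the left and young on the right, and bars are the mean ± SD of 3 arrays. The aged points lie below the young points in every panel but those of Col4a4 and Col18a1, and each panel has its own axis.

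The type IV genes of basement membranes were all 6 tested, and all 6 had a log2 change below 0, of which Col4a2 and Col4a3 passed. The median change of the 6 was -0.57. Col4a2 had 2.43, 2.30 and 2.25 on the aged arrays and 2.85, 2.94 and 2.85 on the young arrays. The spread within each age was small beside the gap between them, and the fall was -0.56 ± 0.10 (SE, n = 3 per age, limma adjusted p = 0.0341), 1.47-fold. Its partner Col4a1 had 2.38, 2.39 and 2.53 on the aged arrays and 2.75, 2.87 and 2.87 on the young arrays. These groups did not overlap, and the change of -0.40 ± 0.11 did not pass (limma adjusted p = 0.099, 95% interval -0.64 to -0.15). The difference Col4a1 minus Col4a2 within an array was 0.11 ± 0.17 in aged and -0.05 ± 0.07 in young kidney (SD, n = 3 each), with overlapping ranges.

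Col4a1 and Col4a2 lie head to head and are read in opposite directions from a shared promoter, as are Col4a5 and Col4a6. In build GRCm38.p6 the annotated start of Col4a2, on the plus strand of chromosome 8, is at position 11312805. That of Col4a1, on the minus strand, is at position 11312826, 21 bases downstream, so that the annotated transcripts overlap at their first bases. The starts of Col4a5 and Col4a6 on chromosome X are 1343 bases apart. The change of this pair was below 0 for both genes, with 95% intervals that overlap (-0.80 to -0.32 for Col4a2 and -0.64 to -0.15 for Col4a1).

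The chains of the mature glomerular network were Col4a3, Col4a4 and Col4a5. Col4a3 had 1.32, 1.56 and 1.28 on the aged arrays and 2.05, 1.97 and 2.32 on the young arrays. It fell on every aged array relative to every young array, by -0.72 ± 0.14 (SE, n = 3 per age, limma adjusted p = 0.0354), 1.65-fold. Col4a5 had 0.48, 1.06 and 0.79 on the aged arrays and 1.35, 1.29 and 1.43 on the young arrays. Its aged values were spread more widely, and the change of -0.58 ± 0.16 did not pass (limma adjusted p = 0.101). Col4a4 had 2.71, 2.50 and 2.62 on the aged arrays and 3.09, 2.85 and 2.70 on the young arrays. Aged replicate 1 was above young replicate 3, and the change of -0.27 ± 0.13 did not pass (limma adjusted p = 0.351); the 3 tested Col4a4 probes changed by -0.51 to -0.27, and without young replicate 1 the change was -0.16. Col4a6, which pairs with Col4a5 in the membrane of Bowman's capsule, had -2.84, -2.90 and -2.93 on the aged arrays and -1.84, -2.53 and -2.49 on the young arrays. Young replicate 1 stood above the other young arrays, and the change of -0.61 ± 0.19 did not pass (limma adjusted p = 0.149). It was -0.38 without that array and -0.33 with normexp.

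Both type IV calls were close to the threshold. The adjusted p of Col4a3 was 0.0508 to 0.108 in the 6 fits that left out 1 array each and 0.0576 with median centring. That of Col4a2 was 0.0807 to 0.126 without aged replicate 2, aged replicate 3 or any 1 young array, 0.181 with median centring and 0.171 with normexp background correction. With the slide column as a block it was 0.0818 for Col4a2 and 0.0873 for Col4a3. The changes themselves stayed between -0.81 and -0.62 for Col4a3 and between -0.61 and -0.52 for Col4a2 in the fits without 1 array. In the test of single probes, where p-values were adjusted over 30825 probes, the probes of Col1a1, Col3a1 and Col5a2 passed, 3 of 36 tested collagen probes, where 0.607% of all probes tested fell, and those of Col4a2, Col4a3 and Col26a1 did not. Of the 14 collagen genes with several probes, 7 had several that could be tested, and in all 7 the tested probes changed in the same direction.

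Col26a1, a collagen first described in mouse testis and ovary, was the remaining gene that fell. It had -2.31, -2.26 and -2.31 on the aged arrays and -1.40, -1.82 and -1.31 on the young arrays. The aged arrays were nearly alike and all lay below the young arrays, with a change of -0.79 ± 0.15 (SE, n = 3 per age, limma adjusted p = 0.0349), 1.72-fold. The adjusted p was 0.116, 0.097, 0.131 and 0.0898 without aged replicate 2, aged replicate 3, young replicate 1 and young replicate 3, and 0.0514 with quantile normalisation and 0.0738 with normexp. It was 0.0688 with the slide column as a block.

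**Figure D3:**
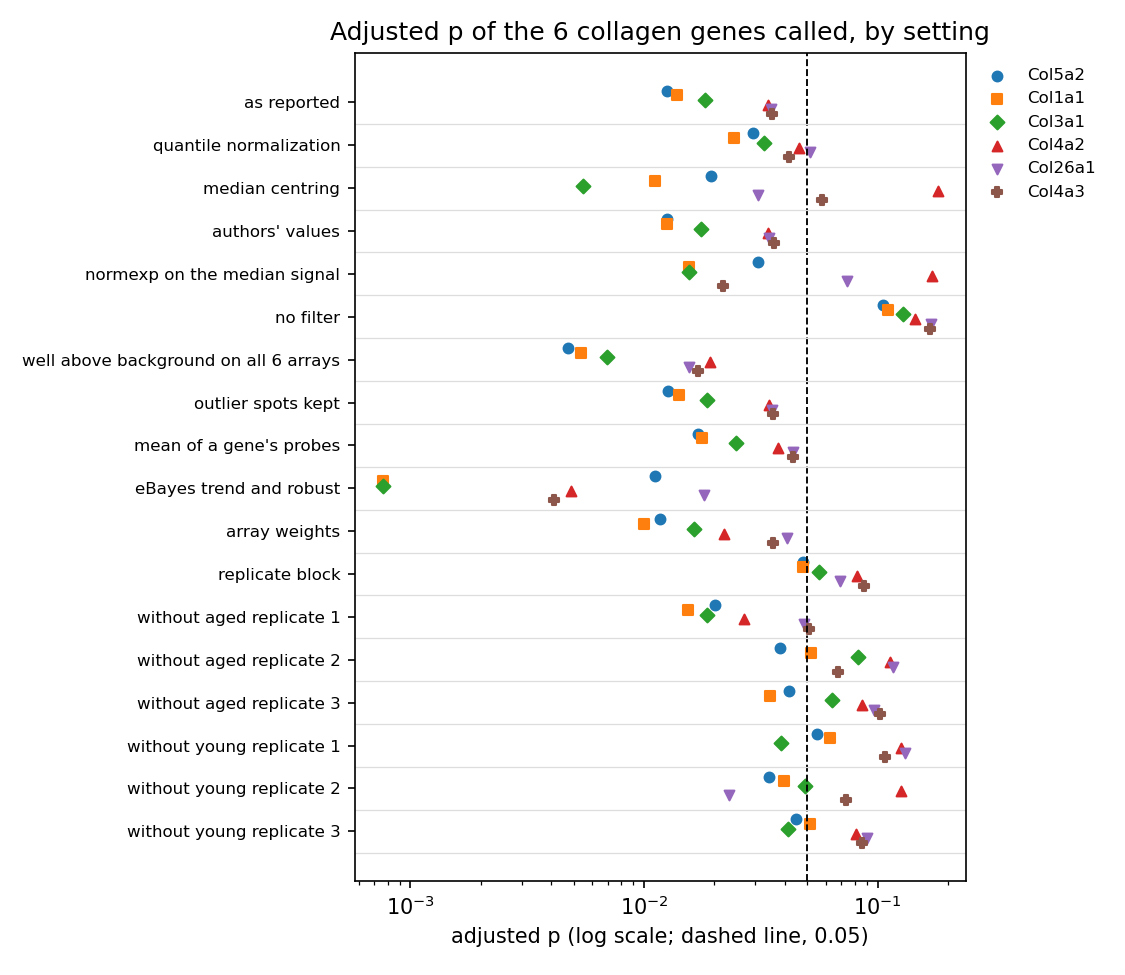
Adjusted p, on a log axis, of the 6 collagen genes called, under each processing setting, with the dashed line at 0.05. Col5a2, Col1a1 and Col3a1 stay left of the line in more settings than Col4a2, Col4a3 and Col26a1, and all 6 lie right of it with no filter on dim probes.

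Type VI collagen forms beaded filaments around cells. Col6a1 had 0.89, 0.87 and 0.91 on the aged arrays and 0.73, 1.08 and 1.32 on the young arrays, which overlap, and changed by -0.15 ± 0.15 (limma adjusted p = 0.672). Col6a2 had -3.20, -3.22 and -3.12 on the aged arrays and -2.96, -2.80 and -2.41 on the young arrays. Its groups did not overlap, and its change of -0.45 ± 0.15 did not pass (limma adjusted p = 0.18); without young replicate 3 it was -0.30. Within an array, Col6a1 minus Col6a2 was 4.09, 4.08 and 4.03 in aged and 3.70, 3.88 and 3.73 in young kidney, higher on every aged array (two-sided exact permutation p = 0.1, the smallest possible; 0.383 adjusted). Col6a5 had -4.93, -4.60 and -5.33 on the aged arrays and -6.73, -5.05 and -4.31 on the young arrays, with a wide interval on its change (-0.85 to 1.67). It was well above background on 2 aged and 3 young arrays, and the sign of its change turned without young replicate 1 (-0.27). Col6a4 and Col6a6 were too dim to test, with -5.49, -6.71 and -4.26 on the aged arrays and -5.49, -5.44 and -7.28 on the young arrays for Col6a4 and -8.15, -7.44 and -6.11 on the aged arrays and -6.26, -5.14 and -5.73 on the young arrays for Col6a6.

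Type VIII collagen is a short-chain network collagen of vessel walls and the corneal membrane, and its 2 chains had changes of opposite sign. Col8a2 had -2.23, -1.78 and -1.77 on the aged arrays and -3.32, -2.81 and -2.25 on the young arrays. All aged arrays were higher, though aged replicate 1 and young replicate 3 were nearly equal, and the change of 0.86 ± 0.26 did not pass (limma adjusted p = 0.147); with median centring it was 0.91 (adjusted p = 0.0232), and without 1 array it was 0.60 to 1.14 (adjusted p = 0.0581 to 0.357). Col8a1 had -1.85, -1.27 and -1.66 on the aged arrays and -0.97, -1.19 and -1.16 on the young arrays. Here all aged arrays were lower, and the change of -0.49 ± 0.16 did not pass either (limma adjusted p = 0.175). Col8a1 minus Col8a2 within an array was 0.39, 0.51 and 0.12 in aged and 2.35, 1.63 and 1.09 in young kidney. The ages did not overlap in this difference, which does not depend on the centring of the arrays (two-sided exact permutation p = 0.1, the smallest possible; 0.383 adjusted).

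**Figure D4:**
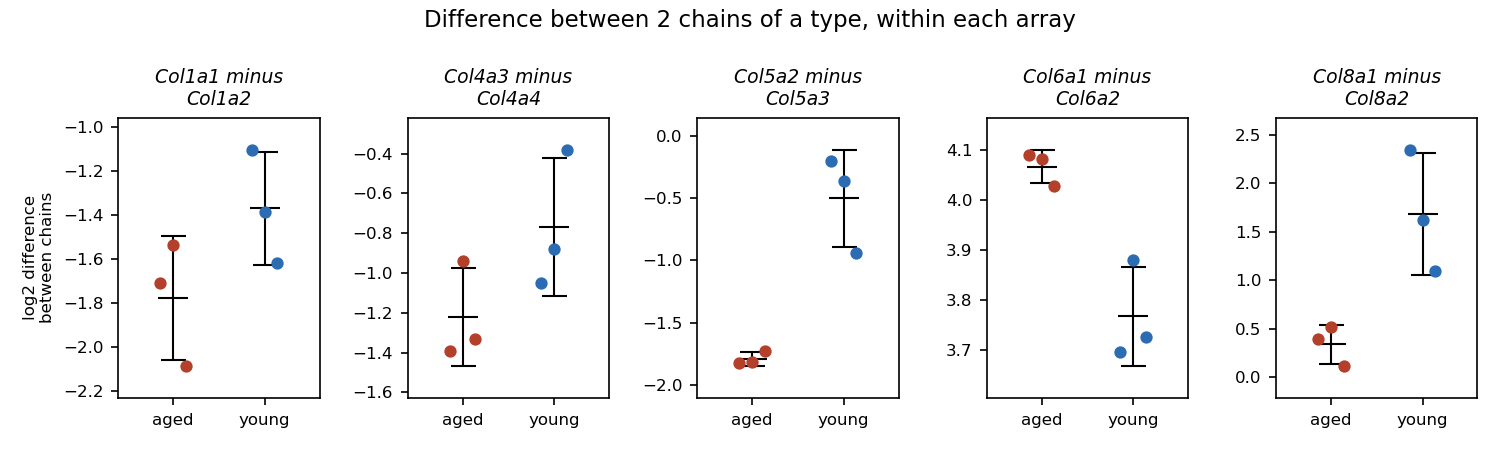
Difference in log2 signal between 2 chains of the same collagen type within each array, aged on the left and young on the right; points are single arrays and bars the mean ± SD of 3. The ages overlap for Col1a1 minus Col1a2 and for Col4a3 minus Col4a4 and do not overlap for Col5a2 minus Col5a3, Col6a1 minus Col6a2 and Col8a1 minus Col8a2. The pairs shown were chosen after their values were seen. Over all 23 pairs of tested chains of a type, the ages did not overlap for 5. For single genes, the shares of all tested genes without overlap, in each direction, are given in the text with the collagen genes. Whether the pairs exceed those shares was not tested.

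The remaining classes held no call. Col7a1, whose protein anchors epithelia to the tissue beneath, had -2.24, -2.65 and -2.72 on the aged arrays and -1.90, -2.08 and -2.07 on the young arrays. Its groups did not overlap, and the change of -0.52 ± 0.15 had a limma adjusted p of 0.125. Of the multiplexins, which carry heparan or chondroitin sulfate chains in basement membrane zones, Col15a1 had -4.17, -4.88 and -4.35 on the aged arrays and -3.96, -3.92 and -3.83 on the young arrays. It was well above background on 2 of 3 aged arrays, and its change was -0.56 ± 0.18 (limma adjusted p = 0.164), or -0.30 with normexp and -0.36 without aged replicate 2. Col18a1, whose cleaved end is the angiogenesis inhibitor endostatin, had 2.90, 3.53 and 3.31 on the aged arrays and 3.20, 3.21 and 3.16 on the young arrays. The young values lay within the aged range, and the change was 0.06 ± 0.16 with a 95% interval of -0.32 to 0.44.

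The fibril-associated collagens sit on the surface of other fibres, and 4 of 8 were tested. Col14a1, Col16a1 and Col9a2 changed by -0.14 ± 0.13, -0.17 ± 0.14 and -0.08 ± 0.14, each with overlapping groups. Col20a1 had -4.82, -5.81 and -5.91 on the aged arrays and -4.26, -4.64 and -4.49 on the young arrays. It was well above background on 1 of 3 aged arrays, and the change of -1.05 ± 0.28 did not pass (limma adjusted p = 0.101); leaving out aged replicate 1 gave an adjusted p of 0.00581 and leaving out each other array 0.176 to 0.293. Median centring gave 0.00305 and array weights 0.0389, and normexp moved the change to -0.46 (adjusted p = 0.205). The second tested Col20a1 probe changed by -0.60 with overlapping ages. Of the transmembrane collagens, Col23a1 alone was tested, with a change of 0.09 ± 0.24. Of the 15 collagen genes not tested, 5 were not well above background on any array, 8 were on 1 to 3 arrays and 2, Col11a2 and Col19a1, were on 4. Among them the ages did not overlap for Col17a1, a collagen of epithelial hemidesmosomes, or for Col25a1, a transmembrane collagen. Col17a1 had -6.39, -4.99 and -6.40 on the aged arrays and -7.42, -8.82 and -7.46 on the young arrays and was well above background on 1 aged and 0 young arrays. Col25a1 had -6.13, -6.28 and -6.33 on the aged arrays and -5.37, -5.54 and -5.85 on the young arrays and was well above background on 0 aged and 2 young arrays. These dim values have no test.

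Genes that build, process, bind or sense collagen moved in both directions. Of 58 tested genes in these lists, 2 fell and 2 rose (6.9%, where 3.38% of all genes tested passed in either direction), with a median change of -0.01. Of 22 tested genes of chain synthesis and folding 1 fell, Plod2, which hydroxylates lysines that later form crosslinks. Plod2 had -3.26, -3.71 and -3.73 on the aged arrays and -2.66 on each of the 3 young arrays, a change of -0.91 ± 0.14 (SE, n = 3 per age, limma adjusted p = 0.0196). Serpinh1, the chaperone that binds procollagen in the endoplasmic reticulum, changed by -0.39 ± 0.12 without passing (limma adjusted p = 0.156). Of 12 tested genes of processing and crosslinking 1 fell, the lysyl oxidase family gene Loxl4, with -2.56, -3.33 and -2.81 on the aged arrays and -1.74, -1.87 and -1.95 on the young arrays. Its change was -1.05 ± 0.19 (limma adjusted p = 0.0321), while Lox, Loxl1 and Loxl3 of the same family changed by -0.25 ± 0.19, 0.42 ± 0.13 and 0.71 ± 0.16 without passing. Loxl2, the other tested member, changed in the same direction as Loxl4 and Lox, with overlapping groups, and did not pass either. For Loxl3 all aged arrays lay above all young arrays (limma adjusted p = 0.0621).

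Of 8 tested collagen receptor genes 1 rose, Itga11, an integrin chain that binds fibrillar collagen on fibroblasts. It had -2.77, -2.63 and -2.94 on the aged arrays and -4.54, -4.14 and -4.26 on the young arrays. Every aged array was well above every young array, with a change of 1.54 ± 0.14 (SE, n = 3 per age, limma adjusted p = 0.00298), and the adjusted p stayed at 0.0204 or below whichever array was left out. Of 16 tested genes of fibril-binding proteins 1 rose, Thbs2, a thrombospondin whose loss in mice gives irregular collagen fibrils. It had -2.41, -2.03 and -2.07 on the aged arrays and -2.99, -2.85 and -2.89 on the young arrays, a change of 0.74 ± 0.13 (limma adjusted p = 0.0279). Dcn, which encodes decorin on the surface of type I fibrils, changed by 0.03 ± 0.14 (limma adjusted p = 0.944). At an unadjusted p under 0.05, 6 of the 16 fibril-binding genes were higher and 2 lower, Postn and Aspn. Aspn was well above background on 2 aged arrays and did not pass the adjusted threshold. Among them Podn, Tnxb and Lum changed by 0.39 ± 0.11, 0.49 ± 0.14 and 0.40 ± 0.14 and Postn by -0.81 ± 0.29, none past the adjusted threshold. The unadjusted counts were 0 higher and 3 lower for synthesis, 2 higher and 1 lower for processing, and 1 higher and 0 lower for receptors. The shares of all tested genes that were higher and lower at this p are given above with the collagen genes. Whether any of these lists departs from those shares was not tested. The calls of Plod2, Loxl4 and Thbs2 were lost without aged replicate 2, without aged replicate 3 and without each young array, where their adjusted p reached 0.0825, 0.113 and 0.116, and that of Thbs2 also with normexp (0.151) and quantile normalisation (0.0601) and that of Loxl4 with the mean of its probes (0.0683).

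Markers of the cells that make collagen did not pass the test. Of 11 tested fibroblast markers 0 passed with limma (2 higher, Thy1 and Lum, and 0 lower at an unadjusted p under 0.05). The shares of all tested genes at this p are given above with the collagen genes. The median change was 0.06. The summed signal, in units of the array's 75th percentile, was 25.8 to 31.4 on aged and 23.7 to 29.5 on young arrays. Dcn and Fbln5, the brightest members, weigh most in this sum. By contrast, the median signal of the list was higher on every aged array than on every young array. On each array that median was the signal of Thy1. Pdgfra and Pdgfrb, growth factor receptors of fibroblasts and pericytes, changed by 0.12 ± 0.14 and 0.06 ± 0.17 (SE). Of 9 tested podocyte markers 0 passed (0 at an unadjusted p under 0.05), with a median change of 0.07 and a summed signal of 17.9 to 20.3 on the aged and 17.8 to 19.4 on the young arrays. Among them Nphs1, which encodes nephrin, changed by 0.08 ± 0.17 (SE). Of 10 tested endothelial and 9 tested smooth muscle and pericyte markers 0 passed (0 at an unadjusted p under 0.05). Their median changes were -0.06 and -0.08. Their summed signals were 27.7 to 30.2 and 25.2 to 28.5 on the aged arrays. On the young arrays they were 28.4 to 28.9 and 28.7 to 29.2. Although these young sums were alike, the median of the smooth muscle and pericyte list was not, as described below with the urothelial list. Dcn, Lum and Dpt stand in both the fibroblast and the fibril-binding list.

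The remaining marker lists covered dividing cells, macrophages, adipocytes, urothelium and tubule segments. All 7 tested cell cycle genes fell, with a median of -1.14 and a summed signal of 0.746 to 1.10 on the aged and 1.72 to 1.97 on the young arrays. The share of all tested genes that fell by this rule is given above with the collagen genes. Bub1 was well above background on 1 aged array and Ccnb1, Plk1 and Top2a on 2. These 4 passed the filter through the 3 young arrays alone, so the size of their falls is uncertain. Aurkb, well above background on 0 aged and 2 young arrays, was not tested. Of 9 tested macrophage markers 2 rose, C1qc and Itgax, and all 9 had a change above 0. At an unadjusted limma p under 0.05, C1qa, C1qb and Adgre1 were higher as well. The summed signal of the macrophage list was 55.3 to 65.6 on the aged and 45.0 to 52.9 on the young arrays. Itgam, the brightest member, weighs most in this sum and did not pass. Of 7 tested adipocyte markers 1 rose, Plin4, and all 7 had a change above 0, 4 of them at an unadjusted limma p under 0.05. The summed signal of the adipocyte list was 32.3 to 35.6 on the aged and 16.5 to 32.4 on the young arrays. The young arrays differed: the median of this list was lowest on young replicate 1 and lay within the aged range on young replicate 3. The median of the 6 tested urothelial markers was -3.65, -3.08 and -3.71 on the aged arrays. On young replicates 1, 2 and 3 it was -0.40, -2.81 and -2.78, and 1 of the 6 fell, Upk3b. The median of the smooth muscle and pericyte list was also highest on young replicate 1. There Cnn1 and Myh11 lay above their signals on every other array. All 4 tested loop of Henle markers had a change below 0 (1 at an unadjusted p under 0.05, 0 past the adjusted threshold), with a summed signal of 33.2 to 37.5 on the aged and 39.6 to 40.8 on the young arrays. All 6 tested collecting duct markers had a change below 0 (2 at an unadjusted p under 0.05, 0 past the adjusted threshold), with a summed signal of 16.4 to 21.1 on the aged and 20.9 to 22.8 on the young arrays. Of 8 tested proximal tubule markers 0 passed (0 at an unadjusted p under 0.05). Their summed signal was 97.0 to 113.1 on the aged and 105.8 to 111.0 on the young arrays. For all these lists, the shares of all tested genes that rose, fell or had a change below 0 are given above with the collagen genes. The shares at an unadjusted p under 0.05 are given there too. Whether any of these marker lists departs from those shares was not tested. Without young replicate 1 the 6 collagen genes changed by -0.84 (Col1a1), -1.06 (Col3a1), -0.84 (Col5a2), -0.57 (Col4a2), -0.75 (Col4a3) and -0.73 (Col26a1). The part of these cell types in the collagen changes was not tested.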

How the data were processed

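Each array file holds intensity per spot, made by the authors with Agilent Feature Extraction 11.5.1.1 and, per the file headers, background-subtracted and detrended within the array with no scaling between arrays. The grid was annotated on mm9. The authors' deposited value table holds log2 signal; each array's column correlated at 0.999998 or more with the values computed here, was shifted by 0.144 to 0.165 and had a median of -4.23 to -3.96, so it is centred near the 75th percentile. It was used as an alternative.

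Control spots and outlier spots were left out and spots of a probe averaged (log2), after which the 75th percentile of the array's non-control spots was subtracted. Names came from RefSeq transcripts (GRCm38.p6): 26762 of 55681 probes had 1 symbol, 28919 none and 0 several. A gene was its brightest probe. limma 3.58.1 (R 4.3.3; lmFit, eBayes, two-sided) tested 14548 genes, aged minus young, without covariates, for both genes and probes. No spot was saturated. The members, lists and tests were chosen with earlier results of these data known. Genes named were all members past the threshold, those with non-overlapping ages and an unadjusted p under 0.05, types I, III, IV, VI, XV and XVIII, and members whose probes disagree (0 genes); others (Col5a1, Col5a3, the fibril-associated members, Col23a1, and single genes of the lists) were named after their values were seen. The compared chain pairs shown were also chosen in that way.

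On simulated data for this comparison (14507 genes), the test recovered 10.4% of simulated log2 changes of 0.5, 71.6% of those of 1 and 92.4% of those of 2. Alternatives were other normalisations, background correction, filters, variance models, array weights, the replicate number as a block and leaving out each array. Normexp used the median spot signal.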

Additional observations from a re-analysis of the deposited data

How the results depend on the processing

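The 6 collagen genes that fell kept a log2 change below 0 under every alternative run. Counts of genes past the threshold moved more than their changes did. The count over all genes was 491, 800 with median centring, 266 with the replicate number as a block, 16 with no filter on dim probes and 141 to 922 without 1 array. The count of collagen genes was 6, 0 with no filter, 2 with the replicate block and 1 to 7 without 1 array. With no filter 20284 genes were tested, dim ones included, and the adjusted p of the 6 genes was 0.106 to 0.17. The count of collagen probes was 3, 0 with no filter, 6 with only probes above background on all 6 arrays, 6 with a trended robust variance, 0 with the replicate block and 0 to 6 without 1 array. The count of genes that act on collagen was 4, 8 with median centring, 0 with no filter and 1 to 5 without 1 array. For the other moved counts the cause was not tested. The replicate number is also the slide column; nothing says that it marks a shared animal or day. The deviations of same-numbered aged and young arrays correlated at 0.06, -0.09 and 0.10 over genes, not all above 0.1, and not every array correlated best with its own number. Uncalled changes that turned sign were those of Col18a1 (0.06), which was -0.048 with normexp and ranged over -0.08 to 0.235 without 1 array, with the low end without aged replicate 2, and of Col6a5 (0.41), which ranged over -0.27 to 0.938, with the low end without young replicate 1. Without 1 array Col23a1 (0.09) ranged over -0.213 to 0.259, Col5a1 (-0.22) over -0.372 to 0.018 and Col9a2 (-0.08) over -0.213 to 0.025, and Col23a1 was -0.028 with array weights. The other 22 tested collagen genes kept their sign under every alternative run. Median centring moved the median of all genes to 0.03. At 3 arrays per age a change of 0.5 was seldom recovered in simulation, so collagen genes with smaller changes may go uncalled, and genes near background have no firm level.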
